A study of Capra hircus with 6 samples.

Results

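The comparison table of this series held 1181 transcripts, named Novel_000001 to Novel_001181, that appeared in neither the mRNA nor the lncRNA expression table. They were taken as every row of that table whose identifier was missing from both, which gave 1181 of 34803 transcripts (3.39%), and no measured value was used to choose them. They are called unannotated transcripts here. RNA came from the hypothalamus of 3 pubertal goats, 4.5 to 5.0 months old, and 3 prepubertal goats, 2.5 to 3.0 months old, all 6 of them female Anhuai goats housed alike, each giving 1 library. Puberty was judged by the response of male goats and the look of the vulva, and pubertal goats were sampled late in the follicular phase. The question was which transcripts differ between the stages around the onset of puberty, with age and stage changing together, so that these cannot be told apart. Each unannotated transcript had a deposited length and 1 group value per stage, in FPKM, the fragments scaled by transcript length and by the mapped fragments of a library. Values per library were not analysed here for the unannotated transcripts, so none of their stage differences is given an error or a test here. Every comparison of them below is a description of 2 group values.

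Transcript assembly joins reads that cross splice sites into transcript models, and it returns models that the genome annotation lacks. Such models can be unlisted exons or ends of known genes, messages of unlisted coding genes, or long noncoding RNAs. The lncRNAs of this series were the assembled transcripts that 3 tools for coding potential, CNCI, CPC and Pfam-scan, all called noncoding, and transcripts called coding by any of them were set aside. The sources used here do not say in so many words how the unannotated transcripts were chosen. Neither a gene name nor a function was given for any of them, and their sequence and position in the genome were not analysed here.

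Of the loci that hold these transcripts, 124 also hold an lncRNA transcript with a deposited sequence and values per library, which is the one view these files give of the letters at such a locus. The lncRNA partners shown are one of XLOC_2325112, among the loci with the most abundant shared unannotated transcripts, and one of XLOC_589186, both under 1000 nt and without an unknown base. Each line is a stretch of 300 bases of the partner in DNA letters, 5′ to 3′, positions 43 to 342 of TCONS_04774213 and 27 to 326 of TCONS_01203871, and no letter of an unannotated transcript is shown. Capitals mark the longest open reading frame of the whole lncRNA on the written strand, ATG to stop, with 19 and 70 codons in that order, the stop not counted.
TCONS_04774213: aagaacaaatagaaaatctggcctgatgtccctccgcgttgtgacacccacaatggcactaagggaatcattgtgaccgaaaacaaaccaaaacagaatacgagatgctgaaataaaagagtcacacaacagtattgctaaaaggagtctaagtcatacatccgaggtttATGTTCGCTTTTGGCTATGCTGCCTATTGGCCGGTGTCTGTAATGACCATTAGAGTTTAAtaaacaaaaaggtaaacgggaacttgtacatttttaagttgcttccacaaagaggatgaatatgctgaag
TCONS_01203871: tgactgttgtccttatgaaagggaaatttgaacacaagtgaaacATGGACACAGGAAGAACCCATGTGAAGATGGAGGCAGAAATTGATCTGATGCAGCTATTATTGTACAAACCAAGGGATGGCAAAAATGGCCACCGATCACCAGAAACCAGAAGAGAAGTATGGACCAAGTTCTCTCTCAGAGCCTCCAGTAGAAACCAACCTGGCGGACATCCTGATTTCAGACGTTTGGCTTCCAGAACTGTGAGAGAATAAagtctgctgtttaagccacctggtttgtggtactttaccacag

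The tissue was checked on annotated genes. Of 10 hypothalamic markers, 6 matched a gene symbol and 5 of these were above 0 in all 6 libraries, among them GNRH1, the gonadotropin-releasing hormone gene, at 5.34 to 16.0 FPKM, and PMCH, which encodes melanin-concentrating hormone, at 673 to 2173 FPKM. SST ran from 142 to 218 FPKM, while AGRP, at 5.69 to 176 FPKM, and POMC, at 22.9 to 429 FPKM, were uneven across the libraries. The highest POMC value was in pubertal replicate 3. OXT, HCRT, TRH and NKX2-1 were not matched, and AVP was listed at 0 in every library. All 3 neuronal and both astrocyte markers were above 0 throughout. The oligodendrocyte marker MBP was listed at 0 in prepubertal replicate 1 and reached 3333 FPKM in another library, so a listed 0 was not read as absence of a transcript. Markers of tissue beside the hypothalamus were present and uneven too. The 3 choroid plexus markers summed to 3.75 to 325 FPKM in the pubertal and 6.17 to 55.9 FPKM in the prepubertal libraries, and 3 of 4 anterior pituitary markers to 2.76 to 12.9 and 0.869 to 2.80 FPKM. Of the pituitary markers, GH1 was above 0 in pubertal replicate 3 only, at 7.79 FPKM, and TSHB was listed at 0 in prepubertal replicate 3. The highest sums of both lists were in pubertal replicate 3, and the part of that library in a pubertal group value of an unannotated transcript was not tested.

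The unannotated transcripts were long, closer in length to mRNAs than to lncRNAs. The class called mRNA here also holds annotated noncoding records with XR identifiers. Their median length was 1885 nt (quartiles 830 and 3907 nt), against 629 nt (350 and 1290 nt) for the 2943 lncRNA transcripts and 2206 nt (1254 and 3710.5 nt) for the 30679 mRNA transcripts. Their mean length was 3097 nt (SD over transcripts 3912 nt), above the mean of the mRNA transcripts, 2869 nt. The median unannotated transcript was longer than 83.7% of the lncRNA and 42.3% of the mRNA transcripts. Both ends of the distribution were well filled. There were 156 unannotated transcripts under 500 nt, or 13.2%, between the 41.6% of the lncRNA and the 3.26% of the mRNA transcripts. At the other end, 284 (24.0%) had 4000 nt or more, against 4.66% of the lncRNA and 21.9% of the mRNA transcripts, and 50 (4.23%) had 10000 nt or more, against 0.646% and 1.72%. These are counts over all transcripts listed, and no test was made of them.

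**Figure D1:**
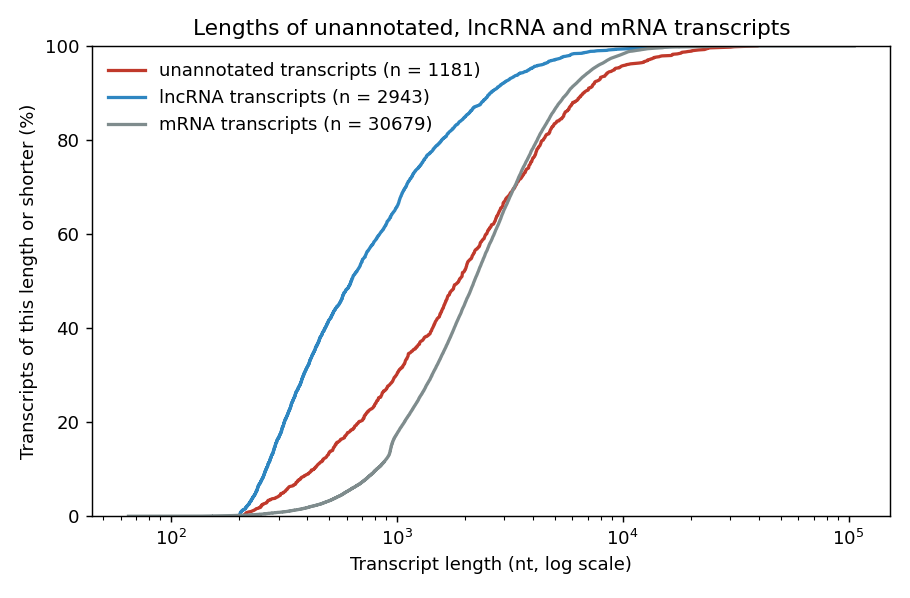
Cumulative share of transcripts (%, vertical axis) by transcript length (nt, log scale, horizontal axis) for the 1181 unannotated, 2943 lncRNA and 30679 mRNA transcripts. The curve of the unannotated transcripts runs between the others past its median and then to the right of the mRNA curve, as 4.23% of them against 1.72% of the mRNA transcripts had 10000 nt or more.

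The longest models were 39327 nt (Novel_000867), 35053 nt (Novel_000582), 31147 nt (Novel_000563) and 30061 nt (Novel_000128). Novel_000867 of XLOC_1639524 had 3.25 FPKM in the pubertal and 3.73 FPKM in the prepubertal group, and Novel_000128 of XLOC_202789 had 2.079 and 2.103 FPKM. Novel_000582 had 1.499 and 1.13 FPKM, and Novel_000563 had 1.56 and 1.195 FPKM. Their loci, XLOC_1074037 and XLOC_1074047, carry close numbers in the assembly, and whether they overlap was not analysed here. All 4 lay within 1.5-fold between the stages and above the median level of the unannotated transcripts. The shortest were 207 nt (Novel_000792), 210 nt (Novel_000754), 211 nt (Novel_000033) and 212 nt (Novel_000357). They were more abundant and more spread, at 7.82 and 6.77 FPKM, 179 and 160 FPKM, 13.7 and 5.60 FPKM, and 4.33 and 3.30 FPKM in the pubertal and prepubertal group. Among these, Novel_000033 alone was more than 2-fold apart.

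The median level of the unannotated transcripts lay between those of lncRNAs and mRNAs. Their median was 0.965 FPKM in the pubertal group (quartiles 0.558 and 1.97 FPKM) and 0.932 FPKM in the prepubertal group (0.549 and 1.92 FPKM). The lncRNA transcripts had medians of 0.587 and 0.601 FPKM, and the mRNA transcripts 2.34 and 2.22 FPKM. The spread was wider among mRNA transcripts, with pubertal quartiles of 0.155 and 11.5 FPKM, so the lower quartile of the unannotated transcripts lay above theirs. All these values come from the same columns of 1 table. A mean of both groups of at least 1 FPKM was found for 561 unannotated transcripts (47.5%), against 29.2% of the lncRNA transcripts and 18408 of the 30679 mRNA transcripts. The median unannotated transcript was above 69.2% of the lncRNA and 39.5% of the mRNA transcripts. Very weak transcripts were few, since 1180 of the 1181 reached a mean of 0.1 FPKM. The exception, Novel_000420 of 428 nt, was at 0.00116 and 0.00114 FPKM. The same minimum was reached by 2925 of the 2943 lncRNA and 23810 of the 30679 mRNA transcripts. Models assembled from the reads of these libraries need such reads to exist, while annotated transcripts of the mRNA class are listed with or without reads. The scarcity of weak transcripts and the lower quartile above that of mRNAs are thus partly set in advance.

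Abundance was concentrated in a few short transcripts. The 8 most abundant, all under 600 nt, held 49.5% of the summed FPKM of the unannotated transcripts, averaged over both groups. Weighted by length, which approximates the fragments assigned if the listed length was the divisor, the same 8 held 12.2%. Whether the authors' FPKM used the listed or a shortened length was not checked. A shortened length would raise the FPKM of short transcripts most. The 284 transcripts of 4000 nt or more held 7.67% of the summed FPKM and 51.1% of FPKM times length. Novel_000543 of XLOC_986415, 290 nt long, was the most abundant at 936 FPKM in the pubertal and 1384 FPKM in the prepubertal group. Novel_000898 (268 nt) had 557 and 591 FPKM, and Novel_001042 (327 nt) had 504 and 546 FPKM. Novel_000096 (216 nt) had 353 and 287 FPKM, and Novel_000754 (210 nt) had 179 and 160 FPKM. The remaining members of this set were Novel_000880 (460 nt) at 188 and 149 FPKM, Novel_000492 (541 nt) at 148 and 171 FPKM, and Novel_000095 (235 nt) at 133 and 149 FPKM. In this set 3 transcripts were higher in the pubertal and 5 in the prepubertal group, and none was 1.5-fold apart.

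Of the 10 unannotated transcripts with a mean of 100 FPKM or more, 9 were under 600 nt and the longest had 744 nt. The 62 with a mean of 10 FPKM or more had a median length of 473.5 nt. Level and length ran in opposite directions in short and in long unannotated transcripts. The Spearman correlation of length and level was -0.19 over all 156 transcripts under 500 nt and 0.18 over the 1025 of 500 nt or more. These points come from the same pooled libraries and share the division by length, so the values are descriptions only. By length, the median of the 2-group mean was 3.78 FPKM under 300 nt among the 49 transcripts counted, 0.719 FPKM from 500 nt to under 1000 nt, 0.822 FPKM from 2000 nt to under 4000 nt and 1.15 FPKM from 4000 nt.

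As a whole, the unannotated transcripts took a similar small part of the transcriptome in both stages. Their share of FPKM times length, summed over all 34803 transcripts, was 0.674% in the pubertal and 0.665% in the prepubertal group, against 0.432% and 0.423% for the lncRNA transcripts. Their summed FPKM was 6286 in the pubertal and 6711 in the prepubertal group. Novel_000543 accounted for the difference, as the sums without it were 5350 and 5327. Without the 8 most abundant they were 3288 and 3273. In tissue of this kind, fewer cells of a type and less RNA per cell cannot be told apart, for the sums and for each transcript below.

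**Figure D2:**
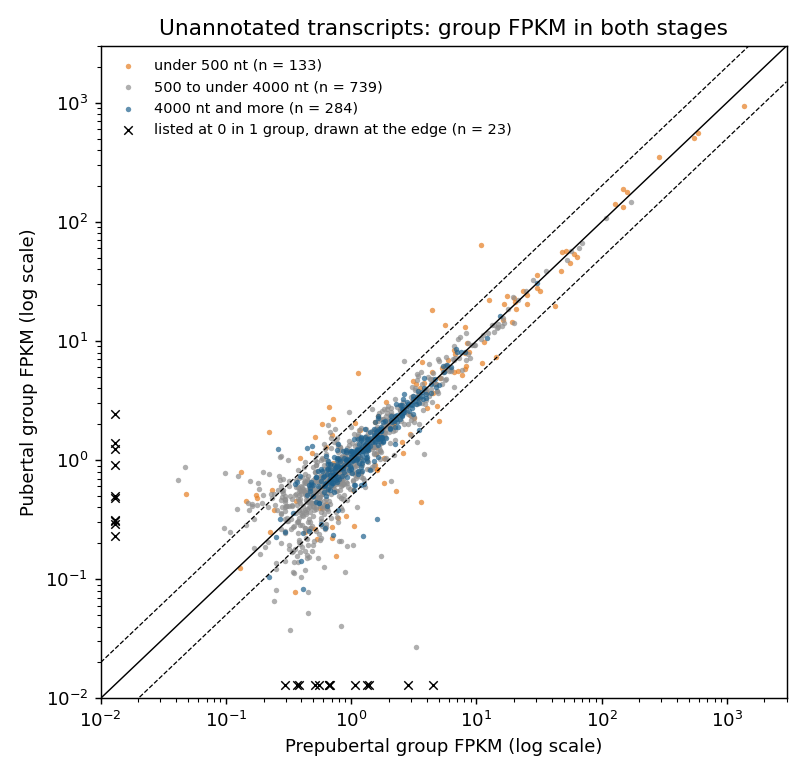
Group FPKM of the unannotated transcripts in the pubertal group (vertical axis, log scale) against the prepubertal group (horizontal axis, log scale), coloured by length, with equality as a solid and 2-fold as dashed lines. The 23 transcripts listed at 0 in 1 group are crosses at the edge, Novel_000420 and Novel_000109 lie below the axes and are not drawn, and most points off the dashed lines lie at low FPKM.

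Stage ratios were computed as log2((pubertal FPKM + 0.1)/(prepubertal FPKM + 0.1)) over the transcripts whose 2-group mean reached 0.1 FPKM. The small constant keeps ratios finite and understates the change of the lowest transcripts. For the 1180 unannotated transcripts counted, the median was -0.01 and the quartiles were -0.25 and 0.25, with 573 above and 607 below 0. For 608 of them (51.5%) the stages differed by less than 1.2-fold on this scale. The median was also near 0 in the other classes, at -0.05 (quartiles -0.61 and 0.43) for the 2925 lncRNA and 0.00 (-0.13 and 0.20) for the 23810 mRNA transcripts. Over all levels together, the unannotated transcripts were thus less spread between the stages than the lncRNA transcripts and more spread than the mRNA transcripts. The Spearman correlation of pubertal with prepubertal FPKM gave the same order, 0.86 over 1180 unannotated, 0.50 over 2925 lncRNA and 0.98 over 23810 mRNA transcripts. Within ranges of level the order against mRNA changed. At a mean of 0.5 to 1 FPKM the quartiles lay 0.79 apart for mRNA and 0.51 for unannotated transcripts. At 1 to 2 FPKM they lay 0.56 and 0.39 apart, and at 2 to 5 FPKM 0.37 and 0.36. Under 0.5 FPKM and from 5 FPKM the mRNA quartiles were the closer ones.

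A ratio of at least 2-fold was found for 122 unannotated transcripts (10.3%), while 9.58% of all transcripts counted in the table were that far apart. There were 57 unannotated transcripts at least 2-fold higher in the pubertal group, or 4.83%, where the background over all transcripts was 5.5%. At least 2-fold lower were 65, or 5.51%, where the background was 4.08%. These shares are near the background and are no result about the unannotated transcripts. Background shares differed by class, with 7.08% of mRNA transcripts (4.6% higher, 2.48% lower) and 29.6% of lncRNA transcripts (13.0% higher, 16.5% lower) at least 2-fold apart. The 122 were shorter and weaker than the rest. Their median length was 591 nt and their median level 0.497 FPKM, against 2041.5 nt and 1.02 FPKM for the other unannotated transcripts counted. Of the 122, 94 had a mean under 1 FPKM, 53 were under 500 nt, 23 were listed at 0 in 1 group, and 8 had 4000 nt or more. The count falls with the choice of scale, to 10 higher and 11 lower with a constant of 1 FPKM.

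The spread of the stage ratio was narrower in the longer transcripts. The distance between its quartiles was 1.21 on the log2 scale for the 49 unannotated transcripts under 300 nt, 0.92 for the 106 from 300 nt, 0.99 for the 199 from 500 nt, 0.52 for the 262 from 1000 nt, 0.43 for the 280 from 2000 nt and 0.32 for the 284 from 4000 nt, each range ending where the next begins. Among lncRNA transcripts it went from 4.76 under 300 nt to 0.40 from 4000 nt. Below 500 nt, 53 of 155 unannotated transcripts (34.2%) were at least 2-fold apart, against 668 of 1207 lncRNA transcripts (55.3%) and 102 of 680 mRNA transcripts (15.0%). From 1000 nt the unannotated and lncRNA transcripts came close. Restricted to 1000 nt or more and to a mean of 0.5 to 2 FPKM, 17 of 514 unannotated transcripts (3.31%) were at least 2-fold apart, as were 24 of 611 lncRNA transcripts (3.93%). Of the mRNA transcripts in the same range, 502 of 4054 (12.4%) were. The quartiles there were -0.17 and 0.24 for unannotated, -0.23 and 0.24 for lncRNA, and -0.21 and 0.43 for mRNA transcripts. This range was chosen after the values were seen.

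**Figure D3:**
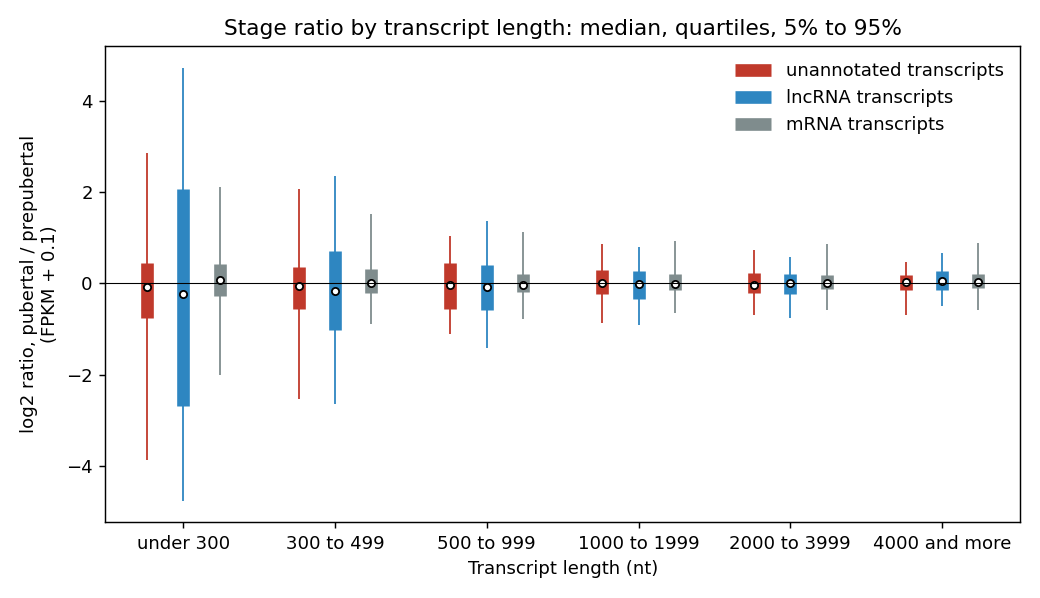
Stage ratio (log2 of pubertal over prepubertal FPKM + 0.1, vertical axis) by transcript length (nt, horizontal axis) for unannotated, lncRNA and mRNA transcripts whose mean reached 0.1 FPKM. Circles are medians, thick bars run between the quartiles and thin bars from 5% to 95% of transcripts, and the bars of the unannotated transcripts shorten from 1.21 between the quartiles under 300 nt to 0.32 from 4000 nt.

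The same held by level. At a mean under 0.5 FPKM, 25.1% of 247 unannotated transcripts were at least 2-fold apart, at 0.5 to 1 FPKM 8.60% of 372, at 1 to 2 FPKM 6.25% of 272, at 2 to 5 FPKM 4.14% of 169, and from 5 FPKM 3.33% of 120. The lncRNA transcripts stayed between 20.3% and 40.8% in all these ranges. The mRNA transcripts went from 24.6% to 0.967%.

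**Figure D4:**
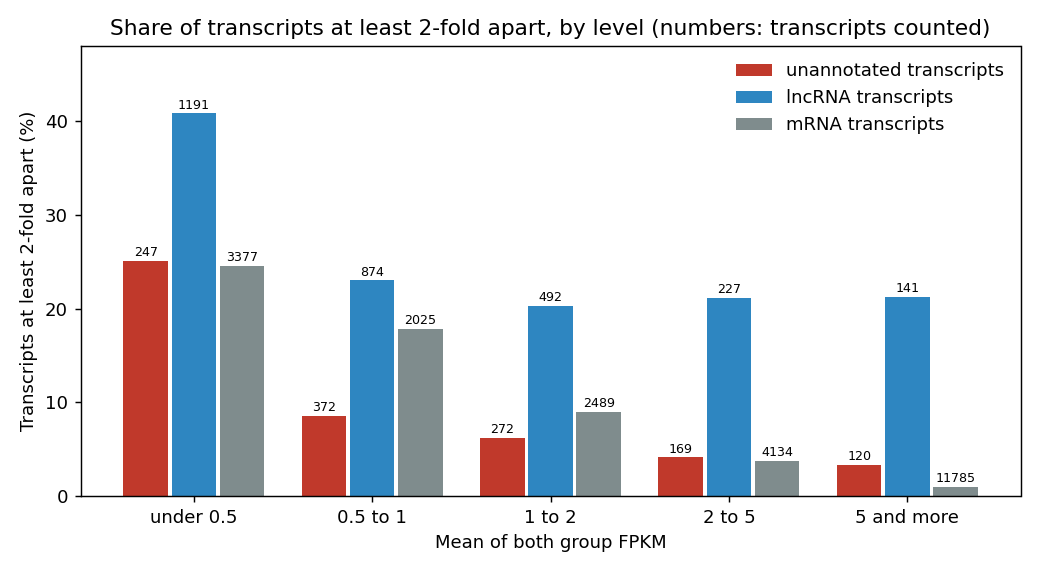
Share of transcripts at least 2-fold apart between the group values (%, vertical axis, from 0) by the mean of both group FPKM (horizontal axis) for unannotated, lncRNA and mRNA transcripts, with the number of transcripts counted above each bar. The share of the unannotated transcripts runs from 25.1% under 0.5 FPKM to 3.33% from 5 FPKM, and that of the lncRNA transcripts stays at 20.3% or more.

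What a 2-fold ratio of group values amounts to in these goats can be read from the transcripts that have values per library. Of 865 lncRNA transcripts at least 2-fold apart, the 3 libraries of one stage all lay above those of the other in 104 (12.02%), where 6.67% of all lncRNA transcripts counted did so. Of 1689 such mRNA transcripts, computed from the library means, 560 (33.2%) did so, where the background was 9.56%. In the higher stage, the top library alone held a median of 72.5% of the summed FPKM of these lncRNA transcripts and 58.3% of that of these mRNA transcripts. The same cannot be said or denied for an unannotated transcript, since its group value hides its 3 goats. These shares depend on the number of libraries. Without 1 library they ran from 22.9% to 25.2% for lncRNA transcripts at least 2-fold apart, where 14.4% to 16.04% of all lncRNA transcripts separated, and from 46.6% to 51.3% for mRNA transcripts, where the background was 16.2% to 28.8%, the upper ends for mRNA both without pubertal replicate 1.

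The unannotated transcripts measured by qRT-PCR in the study were Novel_000453 and Novel_000476. Novel_000453 of XLOC_874382, 2152 nt long, stood at 1.06 FPKM in the pubertal group against 0.271 FPKM in the other, a 3.93-fold ratio of the FPKM and a log2 ratio of 1.65 once 0.1 is added to both. Novel_000476 of XLOC_916020, 3404 nt long, had 0.706 and 1.08 FPKM, a log2 ratio of -0.56. Novel_000453 was past 2-fold and Novel_000476 was not. Neither locus held any other transcript of the table.

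Among the 524 unannotated transcripts of 300 nt or more whose mean reached 1 FPKM, 9 were at least 2-fold higher and 8 at least 2-fold lower in the pubertal group. The largest ratio belonged to Novel_000013 of XLOC_022548, 315 nt long, with 63.9 FPKM in the pubertal and 10.9 FPKM in the prepubertal group, a log2 ratio of 2.55. Novel_000084 (364 nt) had 2.79 and 0.660 FPKM, and Novel_000416 (306 nt) had 2.19 and 0.716 FPKM. Novel_001142 (1019 nt) had 1.98 and 0.650 FPKM, Novel_000753 (just under 1000 nt) had 2.55 and 0.968 FPKM, and Novel_000685 (1546 nt) had 6.73 and 2.66 FPKM. Their log2 ratios ran from 1.93 down to 1.30. Novel_000685 was the longest of these and the only one beside Novel_000013 above 5 FPKM in either group.

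In the other direction, Novel_000711 of XLOC_1364860, 855 nt long, had 0.0268 FPKM in the pubertal and 3.30 FPKM in the prepubertal group, a log2 ratio of -4.75. Novel_000468 (324 nt) had 0.441 and 3.59 FPKM, a log2 ratio of -2.77. Novel_000590 (597 nt) had 1.13 and 3.79 FPKM, Novel_000829 (664 nt) had 0.663 and 2.07 FPKM, Novel_001033 (329 nt) had 0.639 and 1.82 FPKM, and Novel_000530 (328 nt) had 2.14 and 5.03 FPKM. The log2 ratios of these last 4 lay between -1.66 and -1.19. Of the transcripts named here and in the paragraph before, 6 belong to loci with several unannotated transcripts. The loci of Novel_000711 and Novel_000590 are described below. The summed log2 ratio was 0.04 for the locus of Novel_000416 (XLOC_845979), -0.10 for that of Novel_001142 (XLOC_2302832), 0.07 for that of Novel_000829 (XLOC_1559287) and -0.82 for that of Novel_001033 (XLOC_1977071), so none of these 4 sums was 2-fold apart.

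No unannotated transcript was listed at 0 in both groups, which assembly from the reads of these libraries largely sets in advance. In the pubertal group 13 were listed at 0 and in the prepubertal group 10, together 1.95% of the unannotated transcripts, against 14.6% of the lncRNA and 6.63% of the mRNA transcripts. They were all short, spanning 227 to 520 nt around a median of 315 nt, and 20 of the 23 were under 400 nt. Novel_000923 (249 nt) was listed at 0 in the pubertal group and at 4.504 FPKM in the prepubertal group, the highest value in this set. Novel_000061 (257 nt) and Novel_000536 (227 nt) were listed at 0 in the pubertal group and at 2.84 and 1.40 FPKM in the prepubertal group. Novel_000969 (234 nt), Novel_000298 (276 nt) and Novel_000068 (367 nt) were listed at 0 in the prepubertal group and at 2.43, 1.38 and 1.23 FPKM in the pubertal group. No fold is given for these, because no read count sets a floor. Close to this set was Novel_000109 (1383 nt), chosen after its values were seen, at 8.96e-05 FPKM in the pubertal and 0.840 FPKM in the prepubertal group. Ratios of 4-fold or more on the scale used here were found for 36 unannotated transcripts, 16 higher and 20 lower, and 20 of the 36 were listed at 0 in 1 group.

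Of the gene loci of the assembly that gave the 1181 unannotated transcripts, there were 855 with 1 unannotated transcript, 111 with 2, 28 with 3 and 5 with 4, so that 326 transcripts shared a locus with another and are not independent of it. In the 144 loci with several, the most abundant transcript held a median of 64.5% of the unannotated FPKM of the locus in the pubertal and 65.7% in the prepubertal group. It was the same transcript in both groups in 98 loci and another in 46. The log2 ratios of the transcripts of a locus had opposite signs in 88 of the 144 loci and lay at least 1 apart in 39. As ratios centre near 0, opposite signs are common even among unrelated transcripts, so this count alone shows no divergence within loci. Summed by locus, only 2 of the 144 were at least 2-fold apart, and the median absolute log2 ratio of the sum was 0.18. The range of the ratios among the transcripts of a locus had a median of 0.55. These are unlike measures, since a range over several ratios is wide even where they are unrelated. In 4 loci, 1 transcript was at least 2-fold higher and another at least 2-fold lower.

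The widest divergence was in XLOC_1364860, among the 46 such loci with every unannotated transcript at a mean of 1 FPKM or more. Its transcripts had nearly equal lengths, 864, 855 and 828 nt. Novel_000710 had 2.70 FPKM in the pubertal and 1.82 FPKM in the prepubertal group, and Novel_000731 had 3.27 and 2.25 FPKM, while Novel_000711 had 0.0268 and 3.30 FPKM. Novel_000711 was the most abundant of the locus in the prepubertal group and close to 0 in the pubertal group. Whether these transcripts overlap, and how any reads they share were divided among them, was not tested. The locus as a whole had 5.99 and 7.37 FPKM, a log2 ratio of -0.29.

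Of the 5 loci with 4 unannotated transcripts, the 3 with the highest summed level are given. In XLOC_1121653, Novel_000590 (597 nt) had 1.13 FPKM in the pubertal and 3.79 FPKM in the prepubertal group. Novel_000591 (1125 nt) had 4.11 and 3.09 FPKM, Novel_000592 (1012 nt) had 3.05 and 2.59 FPKM, and Novel_000602 (3381 nt) had 1.16 and 1.52 FPKM. The shortest transcript was thus the most abundant in the prepubertal group and the least abundant in the pubertal group, and the sum was 9.45 and 10.99 FPKM. In XLOC_470322, Novel_000234 (1684 nt) led in both groups, at 2.64 and 2.45 FPKM, and Novel_000232 (2669 nt) had 0.154 and 0.461 FPKM. Novel_000233 and Novel_000235 of this locus had 0.805 and 1.13 FPKM and 0.591 and 0.363 FPKM. In XLOC_904710, the 4 transcripts of 5702 to 5925 nt were all less than 1.5-fold apart. Novel_000461 had 0.4995 and 0.5004 FPKM, Novel_000462 had 0.606 and 0.608 FPKM, Novel_000463 had 1.45 and 1.70 FPKM, and Novel_000464 had 1.07 and 0.727 FPKM.

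XLOC_589186, chosen after its values were seen, split into pairs. Novel_000307 (1905 nt) had 0.406 FPKM in the pubertal and 1.11 FPKM in the prepubertal group, and Novel_000308 (2241 nt) had 0.152 and 0.542 FPKM. Novel_000340 (3967 nt) and Novel_000341 (3575 nt) went the other way, with 0.903 and 0.674 FPKM and 0.809 and 0.533 FPKM. The shorter pair was lower and the longer pair higher in the pubertal group, and the sum was 2.27 and 2.86 FPKM. In XLOC_1779358, the last locus with 4, the sum was 1.95 and 2.40 FPKM.

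**Figure D5:**
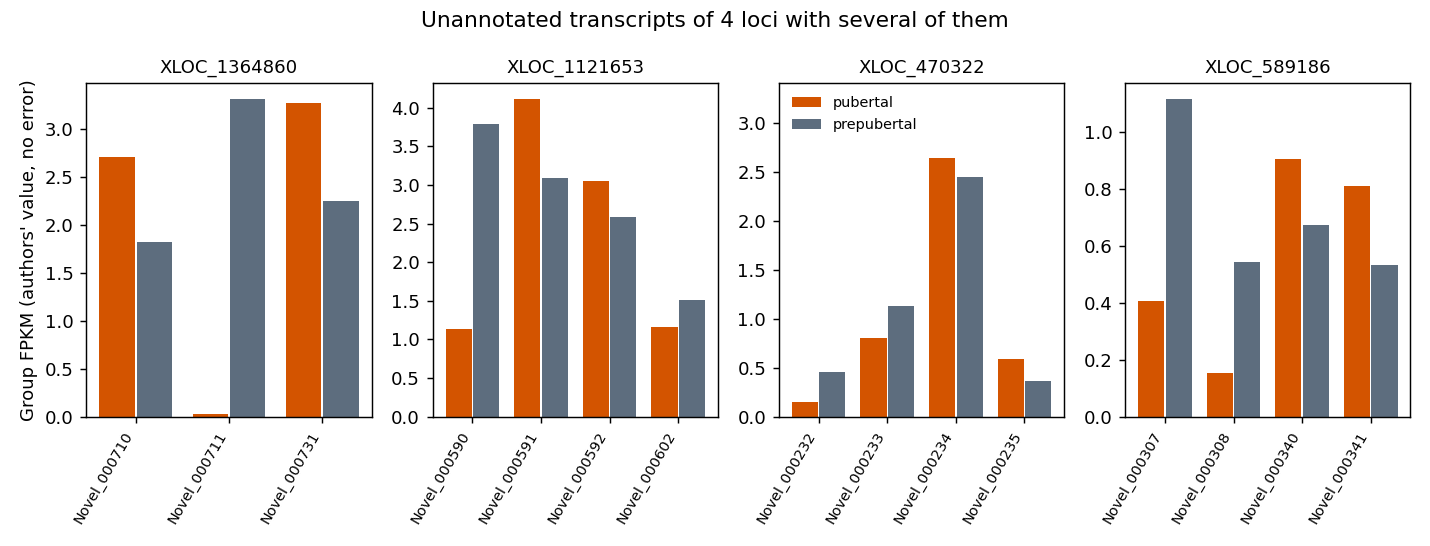
Group FPKM (vertical axis, from 0, each panel with its own scale) of each unannotated transcript of XLOC_1364860, XLOC_1121653, XLOC_470322 and XLOC_589186 in the pubertal and prepubertal group, as the authors' group values without error bars. Novel_000711 stands at 3.30 FPKM in the prepubertal and 0.0268 FPKM in the pubertal group, while Novel_000710 and Novel_000731 of the same locus are higher in the pubertal group.

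No locus held both an unannotated transcript and an mRNA transcript, but 124 loci held both an unannotated and an lncRNA transcript. These are 12.4% of the loci with unannotated transcripts and 4.86% of the 2551 lncRNA loci, and they contained 152 unannotated (12.9%) and 159 lncRNA transcripts. The longest unannotated transcript was longer than the longest lncRNA transcript in 94 of the 124 loci, with medians of 2052 and 1112 nt. Their levels were similar, with summed medians of 0.802 FPKM for unannotated and 0.888 FPKM for lncRNA transcripts, and the unannotated sum was the higher in 63 loci. Across the loci the levels of both kinds had a Spearman correlation of 0.42. The stage ratios did not run together, with a Spearman correlation of 0.03 and the same sign in 66 of 124 loci. At least 2-fold apart were 6 of the unannotated sums and 16 of the lncRNA sums, and both in 2 loci, with the same sign in 1. All loci share the same 6 libraries, so these are descriptions. The unannotated transcripts of shared loci were weaker than the others, with medians of 0.756 and 0.995 FPKM.

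TCONS_02748110, of 744 nt, is the partner of Novel_000694 (3104 nt) in XLOC_1339903. Novel_000694 was the most abundant unannotated transcript in a shared locus, at 26.2 FPKM in the pubertal and 24.9 FPKM in the prepubertal group. For the lncRNA, pubertal replicates 1, 2 and 3 gave 0.734, 0.171 and 0.574 FPKM, and prepubertal replicates 1, 2 and 3 gave 1.14, 1.41 and 0.937 FPKM. The values of the other partners below follow the same order. Its stages did not overlap, with all 3 prepubertal libraries above the pubertal ones, while the group values of the unannotated transcript were 1.05-fold apart. At this locus the unannotated model carried nearly all of the FPKM.

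TCONS_04774213, of 342 nt, is the partner of Novel_001146 (562 nt) in XLOC_2325112. Novel_001146 had 4.13 and 6.66 FPKM in the pubertal and prepubertal group. For this lncRNA, the pubertal libraries gave 8.52, 2.37 and 4.52 FPKM and the prepubertal ones 5.35, 8.22 and 4.80 FPKM, with overlapping stages. TCONS_01203871, of 643 nt, shares XLOC_589186 with the split pairs described above. For this one, the pubertal libraries gave 1.74, 4.29 and 3.56 FPKM and the prepubertal ones 3.24, 4.30 and 2.37 FPKM, and its stages overlapped too.

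In XLOC_1383656, Novel_000721 (1490 nt) had 7.26 FPKM in the pubertal and 8.97 FPKM in the prepubertal group. For its partner TCONS_02849299, the pubertal libraries gave 4.07, 10.9 and 6.49 FPKM and the prepubertal ones 17.0, 8.90 and 9.57 FPKM. The stages of this lncRNA overlapped, and prepubertal replicate 1 was its highest library. In XLOC_1512931, Novel_000806 (970 nt) had 4.38 and 4.80 FPKM, and its partners TCONS_03153264 and TCONS_03170099 stayed under 3 FPKM in every library.

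Among the 6 unannotated transcripts with the largest ratios given above, Novel_001142 and Novel_000753 had an lncRNA partner. For the partner of Novel_001142 in XLOC_2302832, TCONS_04799014, the pubertal libraries gave 0.624, 0.684 and 0.637 FPKM and the prepubertal ones 0.542, 0.866 and 0.371 FPKM. For the partner of Novel_000753 in XLOC_1430952, TCONS_02961807, the pubertal libraries gave 2.88, 3.62 and 4.96 FPKM and the prepubertal ones 3.03, 3.18 and 3.72 FPKM. Both partners overlapped between the stages, with log2 ratios of 0.11 and 0.20, and Novel_001142 and Novel_000753 had log2 ratios of 1.47 and 1.31. Novel_000753 was the one unannotated transcript of its locus. XLOC_2302832 held others, of which Novel_001132 (1097 nt) went the opposite way, at 0.157 FPKM in the pubertal and 1.74 FPKM in the prepubertal group. The 3 unannotated transcripts of that locus together had 2.66 and 2.86 FPKM, a log2 ratio of -0.10.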

How the data were processed

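Hypothalamus RNA of 3 pubertal and 3 prepubertal goats was sequenced after removal of ribosomal RNA, in 1 paired-end library for each goat. The authors used TopHat for alignment, Scripture and Cufflinks for assembly and Cuffdiff for the deposited FPKM values. The submitters' processing notes give version 2.1.1 for Cufflinks and Cuffdiff. The genome build is not given in the sources used here. FPKM gives no counts per transcript, so counting error cannot be stated, and the depth of the libraries was not used here. For the unannotated transcripts only the length and the 2 deposited group FPKM were used. In the other classes group FPKM and the mean over the 3 libraries differed by at most 1% for 99.8% or more of transcripts, which could not be checked for unannotated transcripts. Groups and replicate numbers came from the sample titles. The authors' fold changes, p-values and q-values were not used.

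Ratios used a constant of 0.1 FPKM and a minimum 2-group mean of 0.1 FPKM, and no test was made, since no spread between goats could be computed for these transcripts. The functions were tested on simulated data. Software was Python 3.11.15 with scipy 1.17.1, pandas 2.3.3, numpy 2.4.6 and matplotlib 3.10.9. Gene symbols of markers came from a RefSeq table of the ARS1.2 assembly. All 2943 lncRNA sequences had the length listed for their transcript. The transcripts, lists and ranges were chosen with earlier results of these data known. Named were the transcripts of the qRT-PCR, the 8 most abundant, the 4 longest and 4 shortest, the 6 largest ratios per direction from 1 FPKM and 300 nt, the 3 highest per group among those listed at 0 in the other, the loci with the most unannotated transcripts (5 tied, and the 3 with the highest sum were given in full), the locus with the widest divergence, and the 4 loci shared with lncRNAs that held the most abundant single unannotated transcripts. TCONS partners of other named loci and XLOC_589186 were added after values were seen. The alternatives tried were other constants, minimums, a minimum length, centring, sums by locus, leaving out loci shared with lncRNAs, and, for mRNA and lncRNA transcripts, leaving out each library in turn. Results that need a withheld item are not reported here.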

Additional observations from a re-analysis of the deposited data

How the results depend on the processing

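The counts of unannotated transcripts at least 2-fold higher and lower, 57 and 65, depended on how low values were treated. They were 10 and 11 with a constant of 1 FPKM, 16 and 12 with a minimum mean of 1 FPKM, and 31 and 38 over transcripts of 500 nt or more. The last 2 of these settings count fewer transcripts, 561 and 1025. With no constant, no minimum, centring on the mRNA transcripts, sums by locus, or without loci shared with lncRNAs (an alternative added after seeing the data), they stayed within 1.5 times, at 44 to 65 and 44 to 81. The 65 and 81 are those with no constant, over 1157 transcripts, since the 23 listed at 0 in 1 group have no ratio then. The median log2 ratio lay between -0.02 and 0.00 in every setting tried. Summing by locus raised the median level to 1.11 FPKM in the pubertal and 1.10 FPKM in the prepubertal group. The share of FPKM times length was 0.713% and 0.712% without transcripts under 200 nt, and the share of summed FPKM was 0.631% and 0.607%. Leaving out each library in turn was possible for the other classes only, where the share of transcripts at least 2-fold apart with separated stages ran from 46.6% to 51.3% for mRNA and from 22.9% to 25.2% for lncRNA transcripts, against 33.2% and 12.02% with all 6 libraries. Among all transcripts counted, separation rose too, from 9.56% to between 16.2% and 28.8% for mRNA and from 6.67% to between 14.4% and 16.04% for lncRNA transcripts, as fewer libraries separate more easily. No paired analysis was possible because the stages were sampled from different goats, and no test was made.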
